A study of Mus musculus with 4 samples.

Results

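The 10 genes of an ERK feedback loop were followed across the cell classes of mouse intestinal organoids and across deletion of the ubiquitin ligase genes Cbl and Cblb. They are the Sprouty genes Spry1, Spry2 and Spry4, the Spred genes Spred1 and Spred2, the phosphatase genes Dusp4, Dusp5 and Dusp6, and the transcription factor genes Etv4 and Etv5. All 10 were taken by symbol, for their known roles and by no cut on a measured value, from the 31040 genes in the deposited feature lists. Earlier results of these data were known when they were chosen. All 10 had counts. Organoids are cultures grown from intestinal crypts, and they hold stem, dividing and differentiated epithelial cells. Crypts came from 2 mice aged 10 weeks, and all groups carried Cbl flox/flox, Cbl-bflox/flox and R26Cre ERT2, a Cre recombinase that is inactive until tamoxifen binds it. Control organoids received no drug. Knockout organoids were cultured for 3 days with 4-hydroxytamoxifen at 400 nM, so exposure to the drug and loss of Cbl and Cblb cannot be told apart. Each mouse gave 1 control and 1 knockout library, giving n = 2 in each group, and libraries are numbered 1 and 2 by mouse. All cells of a culture were sampled, with no sort.

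Receptor tyrosine kinases such as EGFR signal through RAS, RAF and MEK to the kinase ERK, and crypt cells are known to need this signal to divide. ERK activity switches on its own inhibitors. Sprouty and Spred proteins act between the receptor and RAF. The phosphatases DUSP4, DUSP5 and DUSP6 remove the activating phosphates from ERK itself, DUSP6 in the cytoplasm and DUSP4 and DUSP5 in the nucleus. ETV4 and ETV5 are ETS-family activators whose genes ERK signaling turns on, in part by removing the repressor Capicua. CBL and CBLB mark activated receptors for degradation. RNA of these genes is therefore often read as a trace of ERK activity, although RNA does not measure the activity itself.

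Capicua binds an octamer close to TGAATGAA, and ETS factors bind the core GGAA. RefSeq promoter windows of GRCm38.p6 (250 bases before to 50 bases after each transcript start) were searched on both strands for these and for the AP-1 site TGANTCA. A window was found for 7 of the 10 genes, in 8 entries; Spry4, Dusp4 and Etv4 had none in the table. An octamer of the Capicua type (TGAATGAA, TCAATGAA, TGAATGGA or TCAATGGA) was in 2 of the 8 entries and in 3.84% of 32851 promoter windows. The 2 were Dusp6, with one at bases -24 to -17 and one at bases 1 to 8, and Spry2, with one at -54 to -47. The upstream 250 bases of both are printed with the octamer in capitals (read on the opposite strand), beside those of Spry1, whose window held no such octamer.
Dusp6, chr10:99262981-99263230, plus strand: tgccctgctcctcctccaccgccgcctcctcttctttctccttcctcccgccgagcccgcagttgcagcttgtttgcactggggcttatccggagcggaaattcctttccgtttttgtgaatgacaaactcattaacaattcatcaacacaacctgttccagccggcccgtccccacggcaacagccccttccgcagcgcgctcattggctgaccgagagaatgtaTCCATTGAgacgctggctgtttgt
Spry2, chr14:105896820-105897069, minus strand: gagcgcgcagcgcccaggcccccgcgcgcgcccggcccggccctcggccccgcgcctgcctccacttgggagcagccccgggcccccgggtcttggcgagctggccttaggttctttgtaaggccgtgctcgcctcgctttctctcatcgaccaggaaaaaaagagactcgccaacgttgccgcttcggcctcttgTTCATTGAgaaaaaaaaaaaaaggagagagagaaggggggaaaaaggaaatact
Spry1, chr3:37639697-37639946, plus strand: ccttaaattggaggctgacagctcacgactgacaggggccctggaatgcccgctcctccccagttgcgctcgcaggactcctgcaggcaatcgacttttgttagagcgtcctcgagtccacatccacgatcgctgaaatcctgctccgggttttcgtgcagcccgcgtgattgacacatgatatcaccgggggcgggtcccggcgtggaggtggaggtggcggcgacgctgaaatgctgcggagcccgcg
The letters GGAA were in 7 of the 8 entries and in 96.0% of all windows, so they set no gene apart. The ETS site CCGGAAGT (3.89% of windows), TGANTCA (7.81%) and the cyclic AMP site TGACGTCA (1.79%) were in 0 of the 8. These matches describe letters in a window and no binding was measured.

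The libraries held 709 to 1983 cell barcodes and 22139560 to 35592468 UMIs (1 UMI is 1 distinct RNA molecule). After filtering, 682 to 1902 cells per library remained, 5359 in all, with median depths of 19555 and 27457.5 UMIs in the control and 16071 and 17505.5 UMIs in the knockout libraries. Levels are CPM, the usual scaling of a gene's UMIs to the total UMIs of the summed cells, and a count of 0 allows up to 0.137 CPM in the shallowest library sum. Cbl had 17.0 and 19.9 CPM in the control libraries (1, 2) and 12.3 and 10.5 CPM in the knockout libraries (1, 2). Cblb had 8.51 and 3.93 CPM in the control and 3.35 and 0.464 CPM in the knockout libraries, so RNA of both targeted genes was reduced but not gone in the sum over all cells. Clusters of cells were named from marker lists into stem-like, cycling-like, enterocyte-like, goblet-like, Paneth-like, enteroendocrine-like and fetal-like classes. Within classes, control and knockout levels of Cbl overlapped in enterocyte-like, Paneth-like and enteroendocrine-like cells and not in the others. In enterocyte-like cells Cbl had 14.6 and 16.6 CPM in the control and 16.7 and 12.3 CPM in the knockout libraries. Cblb was lower in the knockout of each mouse in all of these classes, with overlap in stem-like, enterocyte-like, Paneth-like and enteroendocrine-like cells. The stem-like class is 1 cluster, led by the stem cell gene Olfm4 together with Mcm2, Mcm3, Mcm4 and Cdc6, genes of DNA replication. The fetal-like class is also 1 cluster, with the goblet markers Zg16 and Clca1 among its leaders beside Clu and Anxa1. A finer clustering (resolution 2) had a goblet-like cluster led by Zg16 and Clca1 (99 cells) apart from fetal-like clusters of 114 and 28 cells. Levels given for fetal-like cells may therefore mix both kinds of cell. Of the clusters of low depth, 3 with no own marker among their leading genes stayed unnamed (7.77% to 19.9% of cells per library). The tuft-like class had too few cells to test. Markers of immune (0.348 to 0.648 CPM in sum), erythroid (0 CPM) and mesenchymal cells other than Vim (0 to 0.174 CPM) were near 0. With Vim the mesenchymal sum was 3.25 to 31.4 CPM. Endothelial markers summed to 4.62 to 11.1 CPM, with Cdh5 and Kdr at 0. Glial markers summed to 1.22 to 2.46 CPM, with Gfap and Sox10 at 0. Cd3e and Tyrobp of the immune list were also at 0. Libraries shared at most 1 barcode. Fold changes are given as log2 of knockout over control with their SE. A gene is said to have risen or fallen only by the edgeR quasi-likelihood fit that holds the mouse as a block, at a Benjamini-Hochberg adjusted p under 0.05 over all genes tested, and the values of a fit without the block (group alone) stand beside such calls of these 10 genes. The group-alone fit was the primary test, and the block fit was a secondary one. The primary test called 0 of the 10 in all cells and in each class tested. Every rise or fall of these genes named here therefore rests on the secondary test.

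Summed over all cells, Spry1, Spred1 and Etv4 rose in the knockouts by 1.41 to 1.64 times and Dusp5 fell to 0.64 times control. Each of the other 6 had a positive fold change that missed the threshold. The block fit called 1573 of 13246 genes (11.9%), 543 higher (4.1%) and 1030 lower (7.78%), and 4 of these 10. The group-alone fit called 0 of 13246 genes, with 1138 at an unadjusted p under 0.05. DESeq2 called 131 genes with the group alone (0.989%, of which 0.181% higher and 0.808% lower), Etv4 among them. With the block it called 872 (6.58%, of which 1.83% higher and 4.76% lower), Etv4 and Dusp5 among them. The median fold change of the 10 was 0.42, against -0.01 over all genes tested. Both knockouts were above both controls for 6 of the 10 (22.1% of all genes tested) and below for 1 (19.1%). CPM was higher in the knockout of each mouse for 8 of the 10 (39.6%).

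Among the Sproutys, which block signaling between receptor and RAF, Spry1 (GRCm38, chr3:37639947-37644598) had 11.7 and 11.3 CPM in the control libraries (1, 2) and 19.7 and 16.4 CPM in the knockout libraries (1, 2). The groups did not overlap, and Spry1 rose (0.61 ± 0.11, adjusted p = 0.0281; group alone 0.61 ± 0.14, adjusted p = 0.563). Spry2 (chr14:105891947-105896819) had 8.03 and 6.49 CPM in the control and 9.50 and 6.46 CPM in the knockout libraries. It was higher in mouse 1 and level in mouse 2, with overlapping groups (0.08 ± 0.14, adjusted p = 0.736 in the edgeR block fit). Spry4 was the sparsest, with 29 and 19 UMIs in the control and 45 and 64 UMIs in the knockout libraries (1.06, 0.869, 1.62 and 1.86 CPM). Its knockouts lay above its controls, but within mouse 1 the counting intervals overlapped, and it missed the threshold (0.80 ± 0.32, adjusted p = 0.148 in the edgeR block fit).

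Spred1, a membrane-bound inhibitor of RAF activation that recruits neurofibromin (chr2:117121374-117182279), had 28.2 and 20.7 CPM in the control and 36.9 and 33.2 CPM in the knockout libraries. Both knockouts exceeded both controls, and Spred1 rose (0.49 ± 0.11, adjusted p = 0.0390; group alone 0.48 ± 0.16, adjusted p = 0.563). Its group-alone fold change was 0.31 without control 2. Its relative Spred2 (chr11:19924375-20024026) had 13.5 and 12.3 CPM in the control and 15.8 and 14.8 CPM in the knockout libraries. These groups did not overlap either, yet the difference was small and missed the threshold (0.20 ± 0.11, adjusted p = 0.248 in the edgeR block fit).

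The ERK phosphatases did not move together. Nuclear Dusp5 (chr19:53529109-53542431) had 24.4 and 34.1 CPM in the control and 16.2 and 22.3 CPM in the knockout libraries, 66.5% and 65.5% of control in mice 1 and 2. It was the only one of the 10 with both knockouts below both controls, and it fell (-0.64 ± 0.09, adjusted p = 0.0148; group alone -0.64 ± 0.29, adjusted p = 0.571). The group-alone value was -0.33 without control 2 and -0.39 without knockout 1. Nuclear Dusp4 (chr8:34807297-34819894) had 11.9 and 15.5 CPM in the control and 15.4 and 20.6 CPM in the knockout libraries, 129% and 133% of control. The mice differed as much as the groups, so the groups overlapped, and Dusp4 missed the threshold (0.35 ± 0.10, adjusted p = 0.0776 in the edgeR block fit). Cytoplasmic Dusp6 (chr10:99263231-99267489) had 14.2 and 21.0 CPM in the control and 19.6 and 23.7 CPM in the knockout libraries. It was higher in the knockout of each mouse, with overlapping groups, and missed the threshold (0.28 ± 0.12, adjusted p = 0.162 in the edgeR block fit).

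Of the transcription factors, Etv4 (chr11:101769742-101785371) had 21.2 and 18.1 CPM in the control and 33.8 and 32.1 CPM in the knockout libraries, 160% and 178% of control. The groups lay far apart relative to the spread within them, and Etv4 rose (0.71 ± 0.10, adjusted p = 0.0118; group alone 0.71 ± 0.12, adjusted p = 0.563; DESeq2 group alone adjusted p = 0.0308). Etv5 (chr16:22381309-22439719) had 6.42 and 4.39 CPM in the control and 8.35 and 7.04 CPM in the knockout libraries. Its groups did not overlap, and it missed the threshold (0.48 ± 0.16, adjusted p = 0.0969 in the edgeR block fit).

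**Figure D1:**
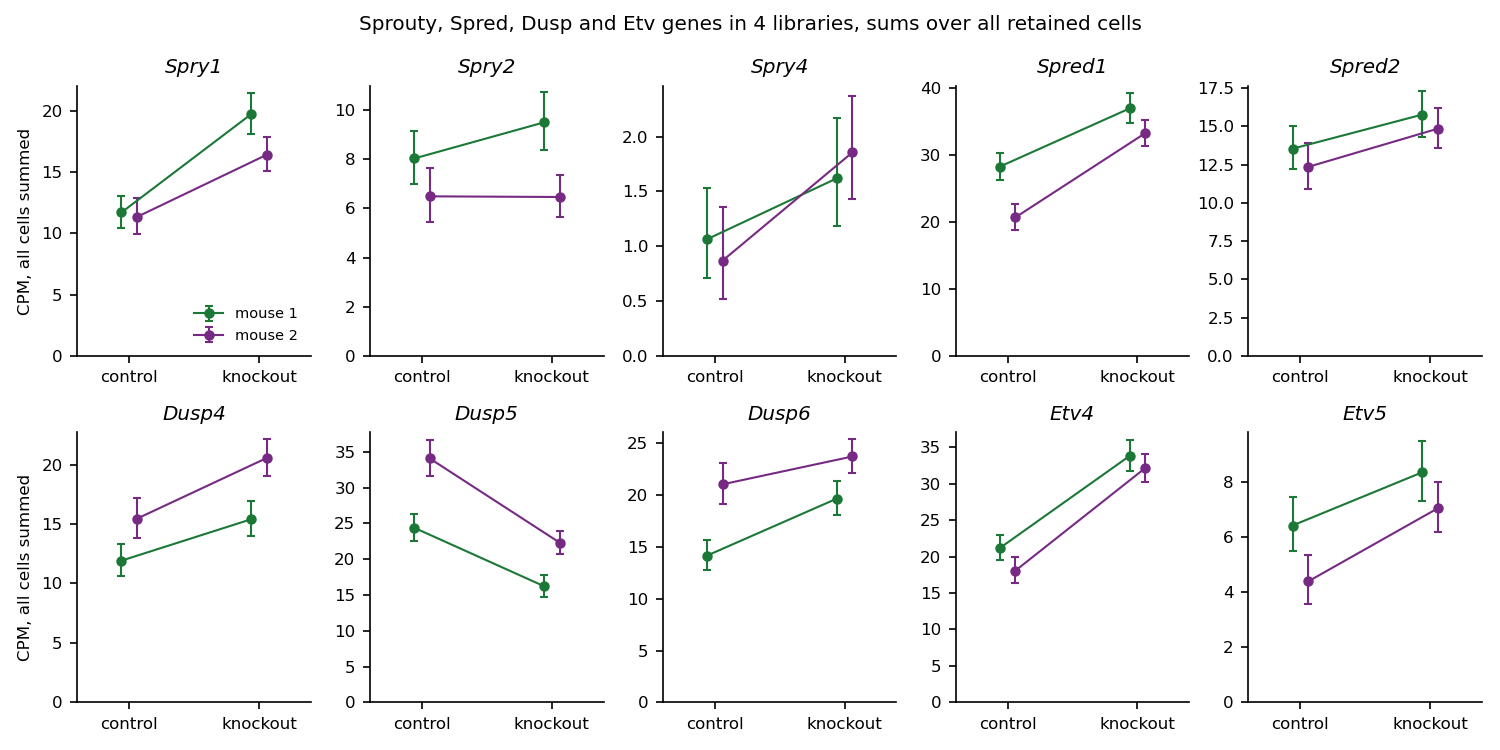
CPM of each gene (vertical axes, each from 0) in control and knockout, summed over all retained cells, 1 point per library with its exact 95% Poisson interval (counting error only) and a line per mouse. Dusp5 falls in both mice from 24.4 and 34.1 CPM to 16.2 and 22.3 CPM, while Spry1, Spred1 and Etv4 rise in both.

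Shares of cells per class did not overlap between the groups for enterocyte-like and cycling-like cells. For the other classes they overlapped (exact permutation p of 0.667 or more). Enterocyte-like cells made up 21.2% and 38.6% of cells in controls 1 and 2 and 13.2% and 15.1% in knockouts 1 and 2 (two-sided exact permutation p = 0.333, the smallest that 2 against 2 libraries allow). Cycling-like cells made up 21.3% and 17.2% in controls and 26.7% and 29.5% in knockouts (exact permutation p = 0.333). These classes held most UMIs of the genes that moved. Enterocyte-like cells gave 59.4% and 64.7% of Dusp5 UMIs in controls and 35.0% and 31.6% in knockouts, and cycling-like cells gave 51.5% and 57.2% of Etv4 UMIs in controls and 55.7% and 59.1% in knockouts. When each library's CPM was rebuilt at the class shares of the controls and tested with limma and the block, the Dusp5 difference was -0.08 ± 0.08 (adjusted p = 0.609). The same rebuilding left Etv4 at 0.48 ± 0.08 (adjusted p = 0.0907), Spry1 at 0.47 ± 0.11 (adjusted p = 0.124) and Spred1 at 0.31 ± 0.10 (adjusted p = 0.194), and raised Dusp6 to 0.53 ± 0.10 (adjusted p = 0.106). It called 40 of 13246 genes (0.302%) and 0 of the 10. The same limma test at each library's own class shares called 2201 genes (16.6%; 8.31% higher, 8.3% lower) and the same 4 of the 10 as edgeR with the block, with Dusp5 at -0.57 ± 0.09 (adjusted p = 0.0110).

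The 10 genes were distributed across the classes in different ways. These levels are a description over the 4 libraries (mean ± SD in CPM), since classes were cut from the same cells. Dusp5 was among the variable genes used for clustering and the other 9 were not. A step between neighboring classes is called clear where the mean difference in log2(CPM + 1) within libraries exceeded its SD, and classes are ordered by their mean on that scale.

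Spry1 was highest in cycling-like (19.0 ± 4.8) and stem-like cells (16.8 ± 3.1), where the step was clear. Enteroendocrine-like (16.6 ± 9.6), goblet-like (12.02 ± 4.14) and fetal-like cells (11.6 ± 2.8) followed without a clear step among them or from the stem-like class. Enterocyte-like (5.48 ± 2.37) and Paneth-like cells (3.47 ± 0.68) were clearly below those. Spry2 varied little, from 8.83 ± 2.84 in enterocyte-like to 5.54 ± 1.67 in fetal-like cells with no clear step (enteroendocrine-like cells, with a wide spread, had 9.40 ± 6.75), and only Paneth-like cells (2.77 ± 2.12) were clearly lower. Spry4 was between 0.338 ± 0.417 CPM in Paneth-like and 2.25 ± 2.89 CPM in enteroendocrine-like cells, and no step was clear at these counts.

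Spred1 was clearly highest in cycling-like cells (37.5 ± 6.6), ahead of stem-like (32.3 ± 5.0) and goblet-like cells (30.4 ± 6.9). It reached 19.8 ± 6.2 in fetal-like, 16.9 ± 3.1 in enteroendocrine-like, 10.9 ± 3.3 in enterocyte-like and 9.40 ± 1.91 in the Paneth-like class, with a clear step below the enteroendocrine-like class. Spred2 was nearly flat, from 17.9 ± 6.0 in enteroendocrine-like to 12.7 ± 1.3 in enterocyte-like cells, with a clear step only to Paneth-like cells (8.91 ± 2.30). The related Sprouty and Spred pairs thus each held a graded member (Spry1, Spred1) and a flatter one (Spry2, Spred2).

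Dusp4 was highest in enteroendocrine-like cells, the hormone-producing class (52.1 ± 22.7), then fetal-like cells (27.2 ± 16.6), whose spread covers a gap between the mice (44.8 and 37.3 CPM in control 2 and knockout 2 against 10.0 and 16.5 CPM in control 1 and knockout 1). The step from enteroendocrine-like to fetal-like cells was not clear. In control 2 Dusp4 was lower in enteroendocrine-like (21.3 CPM) than in fetal-like cells. Dusp4 had 14.8 ± 4.5 in cycling-like, 14.6 ± 4.5 in stem-like, 9.64 ± 1.403 in goblet-like, 8.74 ± 3.51 in enterocyte-like and 4.14 ± 1.87 in Paneth-like cells, with clear steps below the stem-like and the enterocyte-like class. Dusp5 ran the other way from the dividing classes. It was clearly highest in absorptive enterocyte-like cells (90.9 ± 14.1), then enteroendocrine-like (43.1 ± 17.2) and fetal-like cells (34.2 ± 4.8), and lowest in stem-like (9.29 ± 1.36) and cycling-like cells (8.25 ± 1.68). Paneth-like (19.8 ± 4.1) and goblet-like cells (17.3 ± 5.1) lay between with clear steps on both sides.

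Dusp6 had 41.5 ± 22.2 in enteroendocrine-like, 36.5 ± 11.1 in fetal-like, 31.7 ± 15.1 in goblet-like, 24.0 ± 4.3 in enterocyte-like and 24.6 ± 9.0 in Paneth-like cells with no clear step. Cycling-like (12.7 ± 1.9) and stem-like cells (11.1 ± 2.1) were clearly lower, in 4 of 4 libraries. Etv4 was the mirror image of Dusp5 at the ends of its order, with 36.1 ± 7.0 in cycling-like and 33.6 ± 5.9 in stem-like cells and 1.99 ± 1.55 in enterocyte-like cells. It had 29.8 ± 14.0 in enteroendocrine-like, 17.8 ± 4.5 in fetal-like, 17.1 ± 6.6 for goblet-like and 9.20 ± 3.90 for Paneth-like cells, with clear steps below the enteroendocrine-like and the Paneth-like class. Etv5 was highest in enteroendocrine-like (18.1 ± 2.8) and goblet-like cells (12.02 ± 5.05), followed by cycling-like (7.32 ± 0.92), stem-like (5.32 ± 0.73) and Paneth-like cells (6.09 ± 3.79), and it was lowest in enterocyte-like (1.47 ± 1.06) and fetal-like cells (0.888 ± 1.268).

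**Figure D2:**
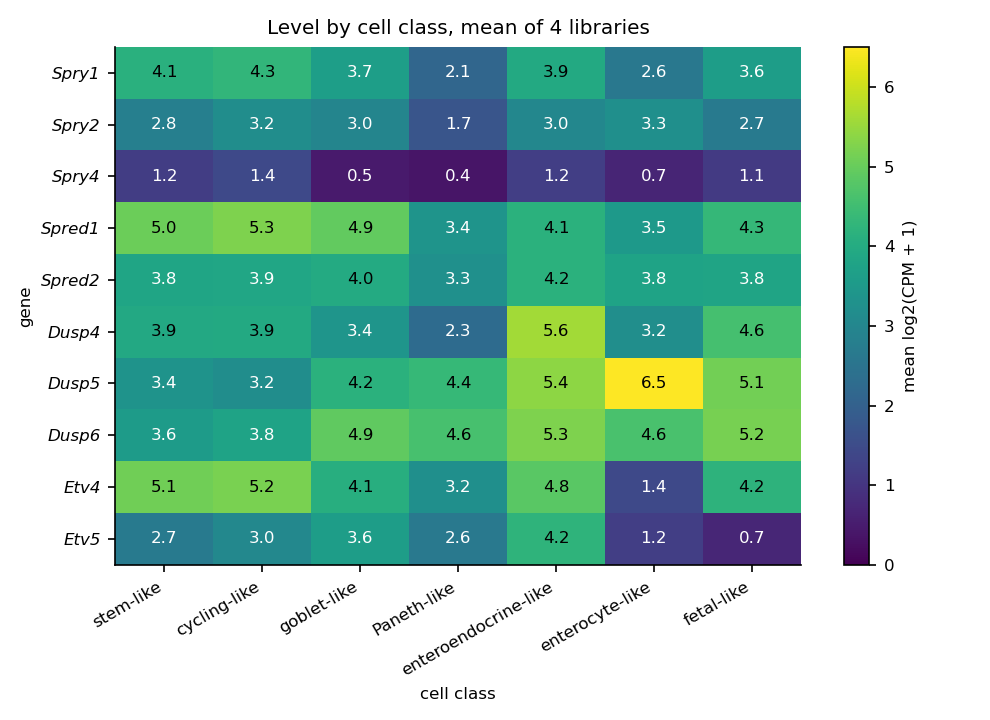
Mean log2(CPM + 1) over the 4 libraries of each gene (rows) in each of 7 cell classes (columns), colored from low (dark) to high (light). Dusp5 peaks in enterocyte-like cells at 6.51 and Etv4 is lowest there at 1.45, while Etv4 and Spred1 peak in cycling-like cells at 5.19 and 5.25.

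The genes nearest to each of the 10 were found by Pearson correlation of log2(CPM + 1) over 28 points, 7 classes in 4 libraries, among 5761 genes with a mean of at least 20 CPM. The points of a library share its depth and RNA, so r is a description. Dusp5 ran closest to Cdhr2, a protocadherin of the enterocyte brush border (r = 0.95), Lysmd3 (0.94) and Stat3 (0.93). Etv4 ran closest to Ppp1r14b (0.94), Acer2 (0.94) and Clns1a (0.94), and Spred1 to Ddx27 (0.93) and Mat2a (0.93). Nearest to Spry1 were Psmd6 (0.93), Prpf38a (0.92) and Rbx1 (0.92), and to Dusp4 were Rap1b (0.90), Cyth2 (0.89) and Actr10 (0.89). Etv5 had Ivd (0.88), Dhrs7 (0.87) and Pik3r1 (0.86), and Dusp6 had F8a (0.83), Selenok (0.82) and Arfgap1 (0.80). For Spred2 the nearest were Safb, Kin and Ube3a (each 0.80), for Spry2 Lactb2 (0.75), Mpdu1 (0.73) and Babam2 (0.73), and for Spry4 Nt5c3 (0.72), Desi1 (0.71) and Dnajb6 (0.67). Among the 10 themselves, Spred1 and Etv4 were the most alike (0.72) and Dusp5 and Etv4 the least (-0.65).

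Within cycling-like cells Spry1, Spred1, Dusp4 and Etv4 rose in the knockouts, by 1.3 to 1.5 times. The block fit called 1252 of 11271 genes (11.1%), 564 higher (5%) and 688 lower (6.1%), and 4 of the 10, all higher. The group-alone fit called 0 genes (897 at an unadjusted p under 0.05), and DESeq2 called 46 genes (0.408%; 0.151% higher, 0.257% lower), or 111 with the block (0.985%), and 0 of the 10 both times. Both knockouts lay above both controls for 9 of the 10, all but Spry2, against 25.2% of genes tested. The median fold change of the 10 was 0.39, against -0.00411 over all genes tested.

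Spry1 had 15.001 and 14.9 CPM in cycling-like cells of controls 1 and 2 and 24.5 and 21.6 CPM in those of knockouts 1 and 2 (0.58 ± 0.13, adjusted p = 0.000346; group alone adjusted p = 0.465). Etv4 had 28.9 and 31.2 CPM in the control and 41.9 and 42.3 CPM in the knockout libraries (0.45 ± 0.10, adjusted p = 0.000709; group alone adjusted p = 0.550). For both genes the 2 libraries of a group agreed more closely than the groups. Dusp4 had 11.1 and 12.3 CPM in the control and 14.8 and 21.1 CPM in the knockout libraries (0.56 ± 0.14, adjusted p = 0.00302; group alone adjusted p = 0.622). Spred1 had 36.5 and 28.6 CPM in the control and 42.5 and 42.5 CPM in the knockout libraries (0.34 ± 0.10, adjusted p = 0.0149; group alone adjusted p = 0.622). Control 2 was the low library for Spred1, and knockout 2 the high one for Dusp4. With the group alone, Spred1 was 0.21 without control 2 and Dusp4 was 0.27 without knockout 2. Dusp5, which fell in the sum over all cells, had 7.21 and 6.49 CPM in the control and 9.22 and 10.1 CPM in the knockout libraries here, with the knockouts above the controls (0.44 ± 0.19, adjusted p = 0.139 in the edgeR block fit).

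The cycling-like class is made of 2 clusters whose balance differed between the mice and, within each mouse, between control and knockout. The cluster led by Slc7a11, Phlda3 and Psph held 8.16% and 18.2% of the class in mouse 1 (control, knockout) and 45.3% and 68.7% in mouse 2. Fitted apart with the block, that cluster called 640 of 9735 genes (6.57%) and Spred1 alone of 9 tested (0.58 ± 0.17, adjusted p = 0.0288; group alone adjusted p = 0.0908, with 2.73% of genes called). The cluster led by Nusap1, Aurkb and Cenpf, genes of mitosis, called 898 of 10802 genes (8.31%) and Spry1 (0.70 ± 0.16, adjusted p = 0.000336), Dusp4 (0.63 ± 0.17, adjusted p = 0.00590) and Etv4 (0.40 ± 0.12, adjusted p = 0.0152). With the group alone it called 0.518% of genes and none of these 3 (adjusted p from 0.138 to 0.298).

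Goblet-like cells, the mucus-secreting class, showed the largest change of the 10 genes that passed in any class. Dusp6 rose to 2.14 times control, and Etv4, Etv5 and Spred1 rose by 1.4 to 1.73 times. The block fit called 1552 of 10182 genes (15.2%), 853 higher (8.38%) and 699 lower (6.87%), and 4 of the 9 tested, all higher. Spry4, with 0 to 5 UMIs per library, was not tested. Without the block edgeR called 12 genes (0.118%; 1649 at an unadjusted p under 0.05) and 0 of the 9, and DESeq2 called 77 (0.756%) and Dusp6 alone, or 136 with the block (1.34%) and 0. Both knockouts exceeded both controls for 6 of the 9 (31.1% of genes tested), and the median fold change of the 9 was 0.48, against -0.01 over all genes tested.

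Dusp6 had 21.0 and 17.7 CPM in goblet-like cells of controls 1 and 2 and 49.7 and 38.4 CPM in those of knockouts 1 and 2. Each knockout was above 2 times the control of its mouse, at 236% and 217% (1.10 ± 0.18, adjusted p = 4.13e-08). The group-alone edgeR fit gave the same size just outside the threshold (1.07 ± 0.19, adjusted p = 0.0726), DESeq2 with the group alone passed it (adjusted p = 0.0405), and DESeq2 with the block gave it no adjusted p (unadjusted p = 0.00139). Its group-alone fold change ranged from 0.95 to 1.21 as each library was left out. In cells thinned to 5000 UMIs, a Dusp6 UMI was found in 5.70% and 7.41% of goblet-like cells of controls and 22.5% and 16.1% of those of knockouts (27.4%, 33.0%, 43.1% and 39.8% before thinning), with 21, 10, 24 and 33 shallower cells left out. In stem-like cells, where Dusp6 was lowest, the thinned shares were 4.35% and 4.88% in controls and 4.79% and 6.17% in knockouts. Median depths were 20708, 28720, 16604 and 18152 UMIs in goblet-like and 25744, 40291.5, 19569 and 16954 UMIs in stem-like cells, in the order control 1 and 2, knockout 1 and 2.

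Etv4 had 15.4 and 8.45 CPM in goblet-like cells of controls and 22.2 and 22.2 CPM in those of knockouts (0.79 ± 0.22, adjusted p = 0.00390; group alone adjusted p = 0.214). Spred1 had 25.1 and 23.8 CPM in the control and 35.8 and 36.8 CPM in the knockout libraries (0.48 ± 0.17, adjusted p = 0.0396; group alone adjusted p = 0.217). Etv5 had 11.2 and 6.53 CPM in the control and 18.8 and 11.6 CPM in the knockout libraries (0.69 ± 0.25, adjusted p = 0.0476; group alone adjusted p = 0.384). Groups did not overlap for any of the 3, and for both Etv genes control 2 was the lowest library. With the group alone, Etv4 was 1.27 without control 1 and 0.49 without control 2, and Etv5 was 1.04 without control 1, 0.35 without control 2 and 0.31 without knockout 1. Spry1 (0.67 ± 0.26, adjusted p = 0.0554 in the edgeR block fit) lay just outside the threshold. Spred1 and Etv5 lost their calls, with adjusted p from 0.0697 to 0.661, when cells were clustered without the ERK genes or at resolution 0.5 or 2. Etv4 lost its call at resolution 2 (0.23 ± 0.21, adjusted p = 0.622 in the edgeR block fit), where Dusp6 alone of the 10 passed (0.86 ± 0.19, adjusted p = 0.000625) and 6.41% of genes were called. The goblet-like class at resolution 2 held other cells. It had 70 and 58 cells in controls and 80 and 204 in knockouts, against 179, 91, 153 and 269. A cluster led by Ccl9 and Ccl6 was unnamed there, and one led by Zg16 and Clca1 was included.

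The goblet-like class also joins 2 clusters. The cluster led by Atoh1, Id4, Agr2 and Dll1, genes of early secretory cells, held 31.3% and 19.8% of the class in controls and 46.4% and 44.2% in knockouts. Dusp6 rose there from 19.2 and 9.98 CPM to 41.5 and 35.6 CPM (1.24 ± 0.25, adjusted p = 0.00151; 463 of 9447 genes called, 4.90%; group alone adjusted p = 0.0520, with 0.995% called). The other cluster was led by Ccl9, Ccl6, Ramp1 and Tpsg1 and also held the goblet markers Muc2, Fcgbp and Spink4. At resolution 2 a cluster with all these genes among its leaders scored best as Paneth (1.91) and stayed unnamed. In this Muc2 cluster Dusp6 rose from 23.0 and 20.5 CPM to 66.3 and 42.0 CPM (1.24 ± 0.22, adjusted p = 4.69e-06 in the edgeR block fit). The block called 236 of 8918 genes there (2.65%). With the group alone the adjusted p of Dusp6 was 0.610, with 0 genes called and 499 at an unadjusted p under 0.05. The Dusp6 difference was therefore as large within each cluster as in the class. Etv4 rose in the Muc2 cluster alone of the 2 (1.44 ± 0.44, adjusted p = 0.0404; group alone adjusted p = 0.879), at 4.22 and 5.26 CPM in the control and 7.37 and 18.9 CPM in the knockout libraries, where knockout 2 carried most of the difference. Spred1 and Etv5, which rose in the class, passed in neither cluster. In the edgeR block fit their adjusted p were 0.259 and 0.589 in the Atoh1 cluster and 0.726 and 0.450 in the Muc2 cluster.

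**Figure D3:**
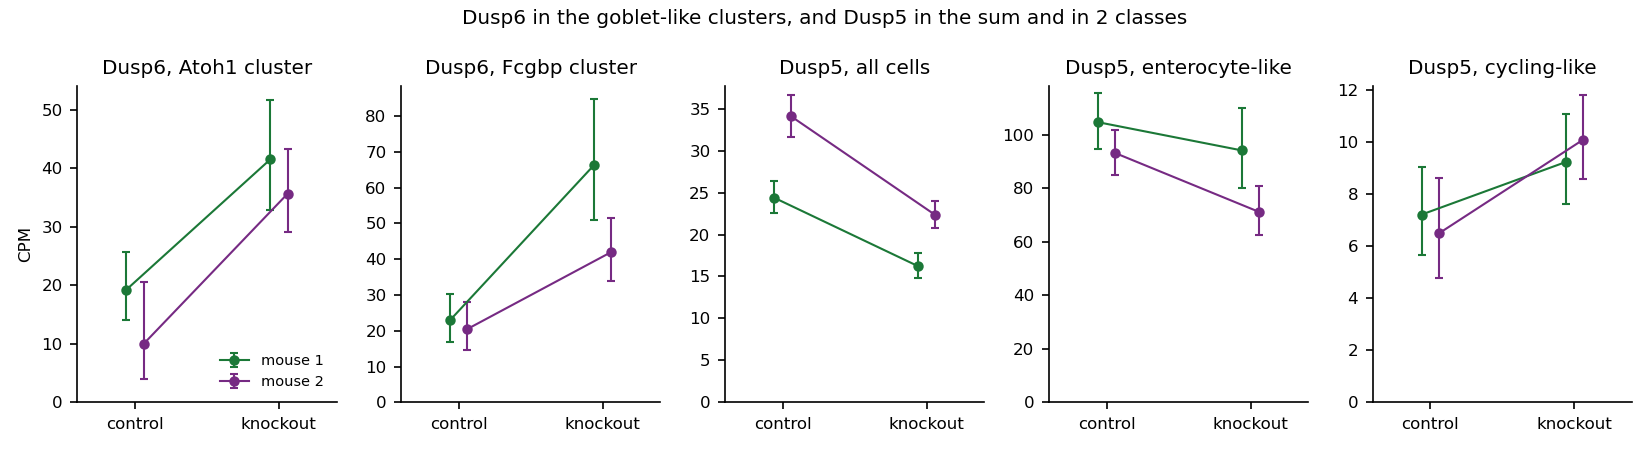
CPM (vertical axes, each from 0) of Dusp6 in the 2 goblet-like clusters and of Dusp5 in all cells, enterocyte-like and cycling-like cells, 1 point per library with its exact 95% Poisson interval and a line per mouse. Dusp6 rises in both mice in both clusters, while Dusp5 falls in the sum, from 24.4 and 34.1 CPM to 16.2 and 22.3 CPM, but is higher in knockout cycling-like cells.

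In enterocyte-like cells, the main source of Dusp5 RNA, none of the 7 genes tested passed, while the block fit called 217 of 9841 genes (2.21%). With the group alone edgeR called 0 (182 at an unadjusted p under 0.05) and DESeq2 called 8 (0.0813%; 0.0711% higher, 0.0102% lower). Dusp5 had 105 and 93.3 CPM in the control libraries (1, 2) and 94.2 and 71.2 CPM in the knockout libraries (1, 2). It was lower in the knockout of each mouse, but knockout 1 lay between the controls, so the groups overlapped (-0.25 ± 0.17, adjusted p = 0.775 in the edgeR block fit). Spred2 was the only one of the 7 with both knockouts (11.9 and 11.4 CPM) below both controls (13.3 and 14.3 CPM; 13.5% of genes tested), and it missed the threshold (-0.22 ± 0.28, adjusted p = 0.943 in the edgeR block fit). The median fold change of the 7 was -0.13, against 0.00519 over all genes tested. Cells of the class were shallow in knockout 1, at a median of 5053 UMIs against 9934 in control 1, and Spry1 had 4 UMIs in that library. Etv4 had 7, 7, 7 and 2 UMIs and Etv5 5, 5, 5 and 2 UMIs in controls 1 and 2 and knockouts 1 and 2, and neither was tested.

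In stem-like cells most of the 10 genes lay higher in the knockouts without any call. The class called 0 of 10088 genes in both edgeR fits, with 665 (group alone) and 1131 (block) at an unadjusted p under 0.05, and DESeq2 called 1 (0.00991%, higher), or 12 with the block (0.0397% higher, 0.0793% lower). Both knockouts lay above both controls for 7 of the 9 tested, all but Spry2 and Dusp5, against 24% of genes tested. Dusp4 had 10.8 and 11.3 CPM in the control and 15.9 and 20.5 CPM in the knockout libraries (0.60 ± 0.21, adjusted p = 0.336 in the edgeR block fit). Etv4 had 27.3 and 31.0 CPM in the control and 35.2 and 41.0 CPM in the knockout libraries (0.32 ± 0.14, adjusted p = 0.434 in the edgeR block fit). The median fold change of the 9 was 0.37, against -0.00657 over all genes tested, close to that in cycling-like cells. Control 2 gave 42 stem-like cells, the fewest of the 4 libraries.

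Paneth-like, enteroendocrine-like and fetal-like cells were few, and none of the 10 passed in them. In Paneth-like cells, which secrete defensins, Dusp6 had 13.7 and 21.1 CPM in the control and 29.97 and 33.8 CPM in the knockout libraries, without overlap (0.80 ± 0.28, adjusted p = 0.512 in the edgeR block fit, which called 2 of 6590 genes, 0.0303%). Dusp6 and Etv4 were the 2 of 5 tested there with both knockouts above both controls (20.9% of genes tested). In enteroendocrine-like cells Dusp6 had 31.5 and 18.2 CPM in the control and 46.2 and 70.0 CPM in the knockout libraries (0.98 ± 0.40), Spry1 10.9 and 6.08 CPM against 25.4 and 24.1 CPM (1.35 ± 0.54), and Dusp4 51.1 and 21.3 CPM against 74.6 and 61.6 CPM (0.78 ± 0.34). Both knockouts exceeded both controls for these 3 and Etv4 of the 8 tested (23.6% of genes tested), and the adjusted p of the 3 were 0.917, 0.917 and 0.940 in the edgeR block fit, which called 11 of 8127 genes (0.135%). Control 2 gave 11 enteroendocrine-like cells and 6 Dusp6 UMIs there. In fetal-like cells, led by Clu, Anxa1, Zg16 and Clca1, 14 and 70 cells came from controls and 17 and 161 from knockouts, the block fit called 17 of 9038 genes (0.188%), and Dusp5 alone of the 8 tested had both knockouts (28.9 and 31.9 CPM) below both controls (40.1 and 35.9 CPM; 16% of genes tested).

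**Figure D4:**
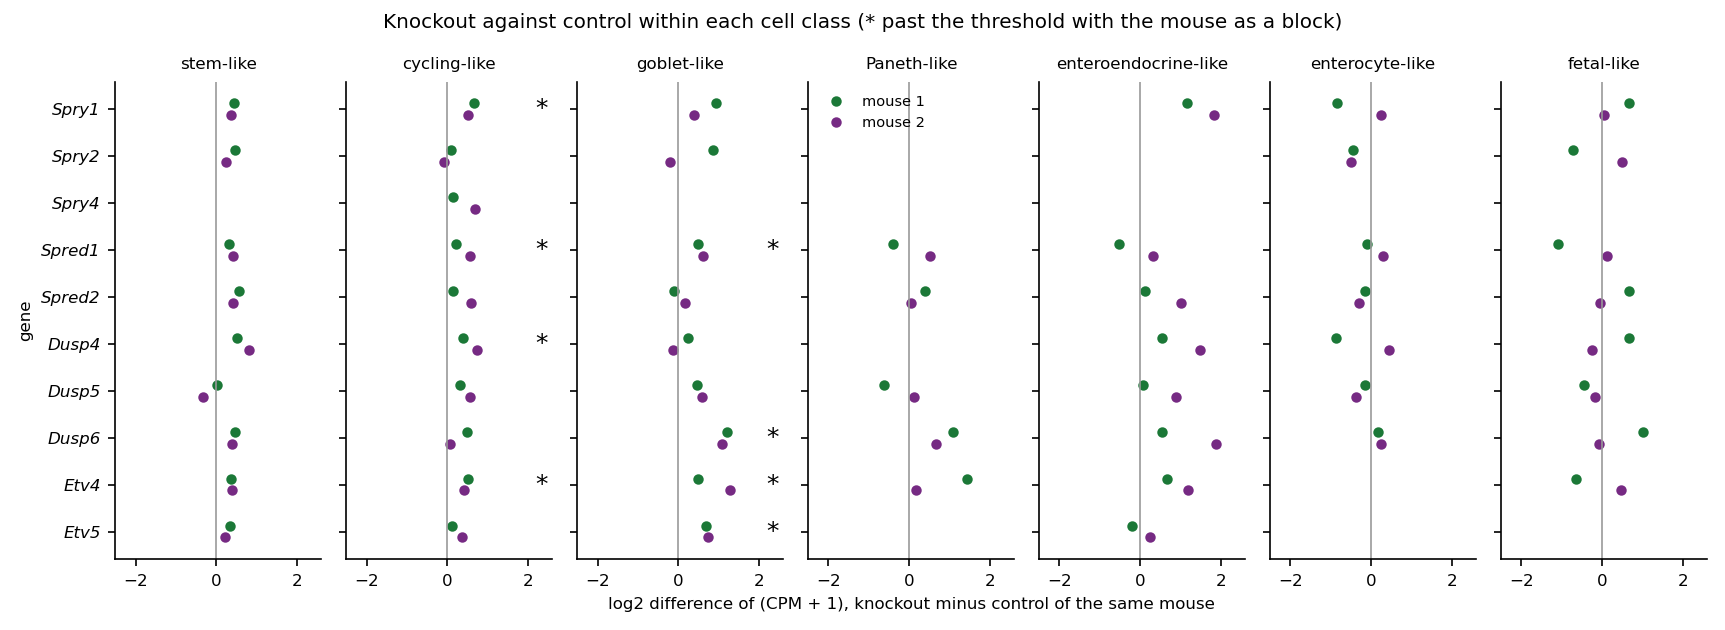
Difference in log2(CPM + 1) between the knockout and the control library of each mouse (horizontal axis) for each gene tested (rows) in each class (panels), with an asterisk where the edgeR block fit passed adjusted p 0.05. Asterisks stand only in cycling-like cells (Spry1, Spred1, Dusp4 and Etv4) and in goblet-like cells (Spred1, Dusp6, Etv4 and Etv5). The shares of all genes called in these classes are given in the text.

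Whether the knockout difference itself varied between classes was tested by an interaction term, with each library held as its own block. Between cycling-like and enterocyte-like cells, 0 of 11533 genes were called, with 353 at an unadjusted p under 0.05. Dusp5 had the smallest p of the 10 there (difference of differences 0.76 ± 0.28, edgeR unadjusted p = 0.0210, adjusted p = 1). Over all 21 pairs of the 7 classes, 190 tests of these genes gave 0 calls and 12 with an unadjusted p under 0.05. The smallest was Dusp6 in cycling-like minus goblet-like cells (-0.82 ± 0.21, edgeR unadjusted p = 0.00252, adjusted p = 0.143). No difference was shown to be particular to a class.

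Other genes of the pathway were followed as lists of companions, with counts in all cells from the block fit, which called 4.1% of all genes higher and 7.78% lower. The group-alone fit called 0 genes of each list in all cells, cycling-like and goblet-like cells, so each of the calls that follow was made with the block only. Of 12 other feedback genes tested (13 listed), 0 rose and 1 fell, with a median fold change of -0.09. The one that fell was Dusp1, a stress-induced phosphatase that acts mostly on p38 and JNK, from 42.5 and 48.5 CPM to 21.7 and 23.3 CPM (-1.05 ± 0.08, adjusted p = 0.00303 by the edgeR block fit). Of 23 genes of the ERK cascade, 1 rose and 3 fell, with a median of -0.11. Hras, one of the RAS genes, rose from 128 and 146 CPM to 160 and 201 CPM (0.35 ± 0.08). The receptor genes Erbb3 (-0.59 ± 0.11) and Erbb2 (-0.51 ± 0.10) and the ERK1 gene Mapk3 (-0.41 ± 0.08) fell. None of 8 genes that inactivate RAS, such as Nf1 and Rasa1, rose or fell (median 0.07).

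Of 14 other ERK-responsive genes, 1 rose and 3 fell in all cells (median -0.16). Ccnd1, which encodes the cell cycle driver cyclin D1, rose from 144 and 96.4 CPM to 196 and 159 CPM (0.54 ± 0.10). The EGFR ligand genes Ereg (-1.30 ± 0.11) and Areg (-0.78 ± 0.16) and the AP-1 gene Fosl2 (-0.69 ± 0.17) fell. Both ligands differed more between the mice than between the groups, Areg with 81.1 and 482 CPM in the control and 62.0 and 228 CPM in the knockout libraries. In cycling-like cells the same list had 6 higher and 0 lower calls (median 0.21, against 5% of genes higher and 6.1% lower in that class). They were Fosl1 (1.78 ± 0.43), Plaur (0.60 ± 0.17), Epha2 (0.58 ± 0.17), Ier3 (0.58 ± 0.12), Phlda1 (0.46 ± 0.07) and Ccnd1 (0.30 ± 0.07), named here after their values were seen. In goblet-like cells, 2 of 12 tested were higher and 3 lower (8.38% and 6.87% of genes). Of 14 ETS and Capicua regulators, Ehf, an epithelial ETS factor, rose (0.33 ± 0.08) and Atxn1, a partner of Capicua, fell (-0.59 ± 0.12), with a median of 0.04.

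Immediate early and dissociation genes, such as Fos and the heat-shock genes, are known to rise with the handling of live tissue, and Fos and Egr1 also with ERK activity. They were lower in the knockouts: 7 of 9 fell in all cells and 0 rose (median -0.65), with Hspa1b (-1.13 ± 0.11), Fosb (-1.11 ± 0.08), Hspa1a (-1.04 ± 0.10) and Atf3 (-1.01 ± 0.08) having the smallest p, and 6 of 9 fell in cycling-like and 7 of 9 in goblet-like cells. Of all genes tested, 7.78% fell in all cells, 6.1% in cycling-like and 6.87% in goblet-like cells, and with the group alone 0 of the 9 fell in any of the 3. Their summed level was 1489 and 1604 CPM in the control libraries (1, 2) and 1169 and 1146 CPM in the knockout libraries (1, 2). In goblet-like cells, where Dusp6 rose, the sum was 1678 and 2639 CPM in the control and 1362 and 1550 CPM in the knockout libraries. Dusp6 and Etv4 in goblet-like cells and Spry1 and Etv4 in cycling-like cells thus rose in the same libraries in which most immediate early genes fell, and the part of cell handling in either was not tested.

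**Figure D5:**
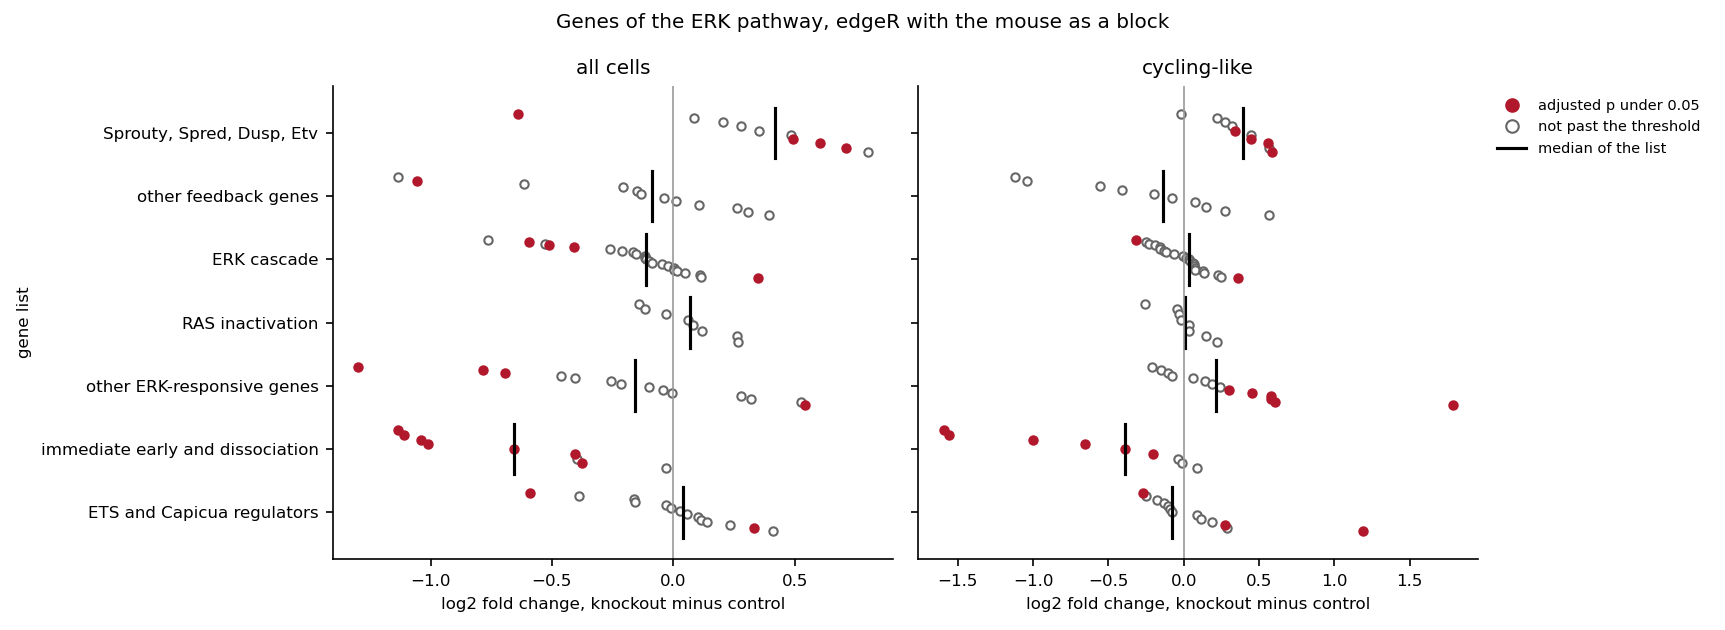
Log2 fold change (horizontal axis) of each tested gene of 7 lists (rows) in all cells and in cycling-like cells, from the edgeR fit with the mouse as a block, filled where adjusted p was under 0.05, with the median of each list as a bar. The Sprouty, Spred, Dusp and Etv genes have medians of 0.42 and 0.39, and the immediate early and dissociation genes -0.65 and -0.39.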

How the data were processed

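The 4 libraries of dissociated organoid cells were measured by droplet RNA sequencing. The authors deposited, per library, a matrix of whole-number UMI counts per gene and barcode. The submitters' processing notes name Cell Ranger 3.0.1 and the build mm10, and the file headers give software version 3.0.0. Strand and annotation settings are not given in the sources used here. Spry1, Spry4 and Dusp5 have an opposite-strand gene over them in GRCm38 that is not among the features.

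Barcodes with under 500 genes (173 of 5602) and the 70 with the highest Scrublet scores, a number set from the barcodes per library (the automatic threshold marked 18 and was not used), were left out. Cells were scaled to 10000, reduced to 2000 variable genes and 30 components, and clustered with Leiden at resolution 1 on 15 neighbors (scanpy 1.11.5, seed 1). Clusters were named from fixed markers at a score of at least 0.5 with at least 3 detected. They stayed unnamed if markers of another type led. They also did if depth was below 0.333 of their libraries' and no own marker was among the 10 leading genes. UMI counts were summed per library and class (at least 10 cells in every library) and tested with edgeR 4.0.16 (quasi-likelihood, TMM, filterByExpr, two-sided, Benjamini-Hochberg), DESeq2 1.42.0 and limma 3.58.1 on log2(CPM + 1) in R 4.3.3. Intervals are exact at 95% and cover counting error only.

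The labels give 2 mice, and the files of a number carry the same mouse tag, so the numbers pair the samples. The deviations of libraries from their group means correlated within a mouse at 0.73 over all cells, and by class at 0.57 (enterocyte-like), 0.54 (cycling-like), 0.34 (goblet-like), 0.30 (stem-like), 0.21 (Paneth-like), 0.06 (fetal-like) and 0.03 (enteroendocrine-like). The block leaves 1 residual degree of freedom in every class, so its p-values lean on the spread estimated across genes. Classes also differ in cells, depth and genes tested, so adjusted p and counts of calls are not comparable between classes. On counts simulated for all cells summed (13026 genes, with a mouse effect of SD 0.3 on the natural log scale), the block recovered 45.5% of 1.5-fold and 93.7% of 2-fold changes and the group-alone fit 0%. With no mouse effect (13083 genes) the block recovered 50% and 87.7%, and the group-alone fit 51.5% and 87.7%. False calls were 5 with the block and 0 with the group alone under the mouse effect, and 7 and 6 without it. The simulated mouse effect was identical in both libraries of a mouse, which is what the block assumes. The simulation therefore cannot decide which fit suits the measured libraries. Recovery in the sums of single classes, where the libraries of a mouse correlated less, was not tested.

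The genes and lists were chosen with earlier results of these data known. Named genes are the 10, Cbl and Cblb, the up to 4 list genes per direction with the smallest p past the threshold in the all-cell block fit, and the 3 genes nearest to each of the 10, of which 1 is not reported here. Sequences are from RefSeq (GRCm38.p6).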

Additional observations from a re-analysis of the deposited data

How the results depend on the processing

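With the group alone, the primary test, all cells summed gave 0 called genes and 0 of the 10. With the mouse as a block they gave 1573 and 4. Other settings with the block gave 1731 and 4 (RLE scaling), 2463 and 5 (no count filter, Dusp4 added), 1507 and 4 (all deposited barcodes), 872 and 2 (DESeq2, without Spry1 and Spred1), 2548 and 4 (without the unnamed clusters, chosen after seeing the data), and 2201 and 4 by limma (chosen after seeing the data). At the class shares of the controls, limma gave 40 and 0. DESeq2 with the group alone gave 131 and 1. Leaving out each library in turn, with the group alone, gave 0 to 0 genes and 0 to 0 of the 10 in all cells, and 78 to 374 genes and 1 to 2 of 9 in goblet-like cells, against 12 and 0 with all libraries. The lone library of a group is there assumed to vary like the other group. In cycling-like cells the replicate block gave 4 of the 10 (11.1% of genes called), as did RLE scaling (added, 8.41%) and Leiden resolutions 0.5 (11.7%) and 2 (8.21%) with the block. At resolution 0.5 a cluster led by Slc7a11 and Ly6a was unnamed. The cycling-like class there held 73 and 294 cells in control 2 and knockout 2, against 117 and 562. Clustering without the ERK genes with the block gave 3 (7.93%), without Spred1 (adjusted p = 0.0508 in the edgeR block fit). In goblet-like cells the block gave 4 of 9 (15.2%), as did RLE scaling (added, 15.3%), while DESeq2 gave 1 with the group alone (0.756%). With the block, clustering without the ERK genes gave 2 (11.3%), resolution 0.5 gave 2 (11%) and resolution 2 gave 1 (6.41%, Dusp6). The goblet-like class at resolution 2 lacked a cluster led by Ccl9 and Ccl6, which was unnamed there.

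With each library left out in turn, the fold change of Dusp6 in all cells ranged from -0.022 (without control 1) to 0.62 and that of Spry2 from -0.16 (without knockout 1) to 0.30 (-0.014 without control 2), and the Etv5 difference between cycling-like and enterocyte-like cells turned to 0.18 when clustered without the ERK genes; the cause was not tested. Of the block fit's calls among the 10 genes, repeated under every other setting that holds the block, 22 of 28 were kept in all cells, 15 of 20 in cycling-like and 9 of 20 in goblet-like cells, where DESeq2 gave 4 no adjusted p. Dusp5 in all cells ranged from -0.94 (without knockout 2) to -0.33 (without control 2). Depth limits Spry4 most, at 19 to 64 UMIs per library.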
